A study of Mus musculus and synthetic construct with 32 samples.

Results

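Testes of 12-day-old mice (postnatal day 12, P12) that lacked Ythdc2 were set against testes of heterozygotes, in 6 of the series' 32 samples. The 3 knockout libraries (Ythdc2 -/-) and the 3 heterozygous libraries (Ythdc2 +/-) were total RNA of whole testes from C57BL/6J mice. Every feature of the authors' P12 table was taken, 75820 in all, which are exons, introns, repeats and miRNA genes, each counted on the sense and on the antisense strand. The series also held testes at P8, newborn ovaries and libraries of immunoprecipitated methylated RNA, and these are used here beside the P12 genes alone.

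The mutation sits in exon 7 of Ythdc2, within the part that encodes the RNA helicase domain. One knockout line lost that exon through a deletion of 152 bp and the other carries a cassette of stop codons there, and for no library do the labels name the line. The heterozygotes carry 1 such allele themselves, so both groups hold mutant alleles. The labels do not say whether the 3 libraries of a group came from separate animals. The table holds a mean over the 6 libraries, a fold and an adjusted p for each feature, and no value per library, so the spread between libraries cannot be shown at any value.

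YTHDC2 is an RNA helicase whose YTH domain binds N6-methyladenosine (m6A), a methyl mark on adenines of messenger RNA. It works with the protein MEIOC in germ cells that leave mitosis and enter meiosis. In the mouse testis the first wave of germ cells passes from spermatogonia into meiotic prophase during the second week after birth, when chromosomes break, pair and recombine. The rest of the tissue consists of Sertoli cells, which nurse germ cells inside the tubules, and of Leydig, peritubular, vascular and immune cells around them.

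Ythdc2 itself was lower in the knockout. Its exons had a log2 fold (knockout over heterozygote) of -1.29 in the authors' deposited table (with adjusted p = 9.87e-25, mean normalized count 950.4). Its introns, at -0.34 in the authors' deposited table, did not pass the test (adjusted p = 0.455). These counts run over the whole gene and are no check of the lesion within exon 7.

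Defining genes of the testis were present. Mean normalized counts in the authors' deposited table were 39178 for the Sertoli cell gene Clu, 11461 for the germ cell gene Dazl, 12828 for the smooth muscle gene Acta2 of peritubular cells and 2797 for the Leydig cell gene Cyp17a1. Genes of late spermatids, which should be absent at this age, had low counts. The mean normalized count was 0.828 for Prm2, 0.662 for Tnp2 and 3.87 for Odf1 in the authors' deposited table. It was 9.01 for Tnp1 and 10.45 for Akap4 in the authors' deposited table.

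Across sense exons the knockout had far more lower than higher genes. Calls were taken at the authors' adjusted p below 0.05 among features whose mean normalized count reached 10. Of 15608 exons measured in this way, 122 were lower (0.782%) and 15 were higher (0.0961%). The lower genes had a median log2 fold of -0.63, and 16 of them reached -1 or beyond. The higher genes had a median of 0.51, and 0 of them reached 1. All measured exons had a median of 0.01, with 52.1% above 0. In bulk tissue, fewer cells of a type and less RNA per cell cannot be told apart. The genes next to the threshold were close to each other, with 4930447C04Rik at -0.50 just inside it (adjusted p = 0.0496) and, tied just outside it (adjusted p = 0.0529), 4933416C03Rik at -0.48 and Zfp398 at -0.37 in the authors' deposited table.

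**Figure D1:**
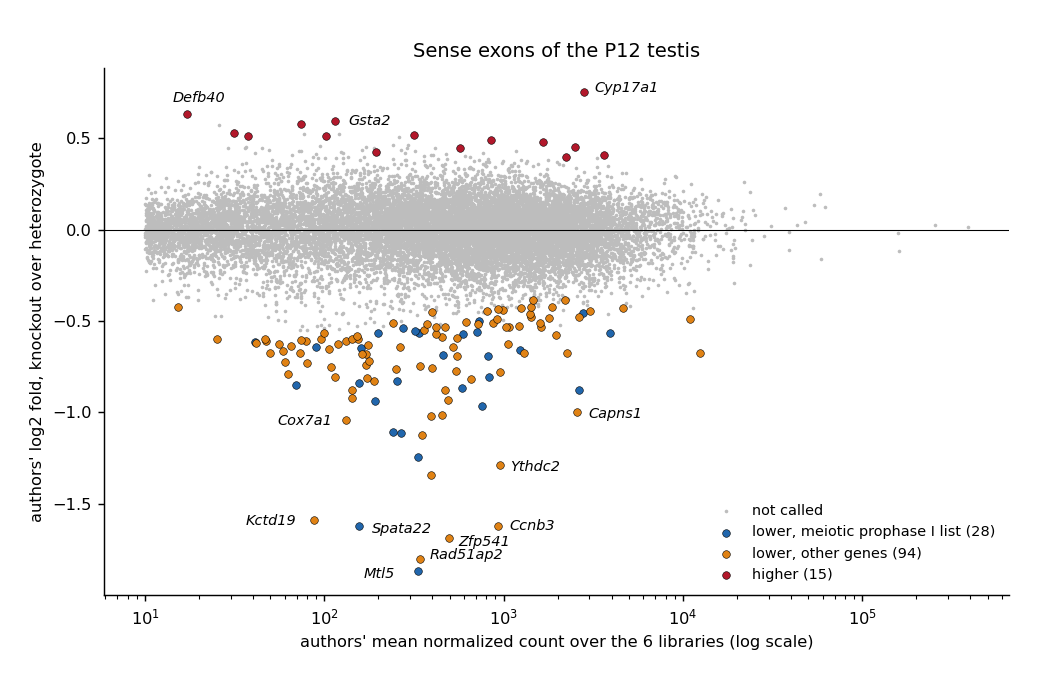
Log2 fold (knockout over heterozygote, vertical) against the mean normalized count over the 6 libraries (horizontal, log scale) for sense exons of the P12 testis, both as the authors deposited them. Each point is a gene. The 28 lower genes of the meiotic list (blue) and the 94 other lower genes (orange) reach down to -1.87, and the 15 higher genes (red) reach up to 0.76.

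Meiotic prophase I genes made up a large part of the lower genes. Of 48 measured members of a list of 54 names, 28 were lower, 0 were higher and 20 were not called (Meiob among them, without an adjusted p), with a median log2 fold of -0.56 and 40 members below 0. In introns of the same genes, 23 were lower and 1, Stra8, was higher. The members belonged to several steps of prophase. For double-strand breaks, Ccdc36 (also Iho1), whose product prepares break sites along chromosome axes, stood at -0.81 in the authors' deposited table (with adjusted p = 2.58e-08). For crossover formation, the helicase gene Hfm1 stood at -0.96 in the authors' deposited table (with adjusted p = 2.17e-07). Msh4, the partner of Msh5 in stabilising crossover intermediates, stood at -0.65 in the authors' deposited table (with adjusted p = 0.00651). All 3 products act once chromosomes have entered prophase.

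Of 4 meiotic genes described here for attaching chromosome ends to the nuclear envelope, 3 were lower and 1 was not called. Ccdc155 (also Kash5), whose product spans the envelope to reach the motor dynein, had a log2 fold of -0.94 in the authors' deposited table (with adjusted p = 5.23e-07). Spdya, an activator of CDK2 at telomeres, stood at -0.83 in the authors' deposited table (with adjusted p = 4.52e-05). The telomere adaptor 1700123I01Rik (also Majin) stood at -0.64 in the authors' deposited table (with adjusted p = 0.00874). Sun1, whose product forms the inner part of that bridge and is also made in somatic cells, stood at -0.22 and was not called in the authors' deposited table (with adjusted p = 0.609).

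Among axis and synapsis genes, folds ranged widely. Rad21l, a meiotic cohesin subunit, stood at -1.24 and the axis genes Sycp2 and Sycp3 at -0.88 and -0.66 in the authors' deposited table (with adjusted p = 3.53e-15, 5.23e-07 and 0.00407). Stag3, another cohesin subunit of meiosis, stood at -0.57 in the authors' deposited table (with adjusted p = 0.00111). Hormad2 and Hormad1, which mark unsynapsed axes, stood at -0.57 and -0.56 in the authors' deposited table (with adjusted p = 0.0120 and 0.0257). Syce3 and Tex12 of the central element stood at -0.55 and -0.54 in the authors' deposited table (with adjusted p = 0.0353 and 0.0326). Other parts of the same structures were not called, with Sycp1 at -0.46, Smc1b at -0.42 and Syce1 at -0.26 in the authors' deposited table (with adjusted p = 0.0774, 0.0768 and 0.613). Members of 1 structure thus fell on both sides of the threshold.

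Regulators of transcription in spermatocytes held some of the lowest folds, while most of the list was not called. Mtl5 (also Tesmin), a testis gene with a cysteine-rich DNA-binding domain, had the lowest exon fold, -1.87, in the authors' deposited table (with adjusted p = 1.24e-32). It was not on the list of spermatocyte regulators. Of 20 measured spermatocyte regulators 5 were lower and 0 higher, with a median of -0.16, beside 0.782% lower over all exons. Zfp541 at -1.69 and Kctd19 at -1.59 were the lowest of the list in the authors' deposited table (with adjusted p = 8.87e-30 and 1.44e-20). The transcription factor gene Dmrtc2, needed in pachytene spermatocytes, stood at -0.92 in the authors' deposited table (with adjusted p = 1.16e-06). Sox30, a regulator of the later programme of spermatids, stood at -0.60 in the authors' deposited table (with adjusted p = 0.0199). Spermatogonial regulators of the same list stood above 0 without a call, with Sohlh2 at 0.32 and Sohlh1 at 0.15 in the authors' deposited table.

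Among 30 measured cyclins and kinase inhibitors 2 were lower and 1 higher, with a median of 0.06. Over all exons 0.782% were lower and 0.0961% higher. Ccnb3, a cyclin of early meiotic prophase, stood at -1.62 in the authors' deposited table (with adjusted p = 9.02e-25). Inca1, an inhibitor of CDK2 that binds cyclin A1, stood at -1.34 in the authors' deposited table (with adjusted p = 2.22e-20). The mitotic cyclin gene Ccna2 was higher, at 0.40, in the authors' deposited table (with adjusted p = 0.0345), and its relatives Ccnb1 and Ccnb2 at 0.34 and 0.29 in the authors' deposited table were not called. Of 40 mitotic genes, 28 were above 0, 1 was lower (Bub1) and 1 higher (Ccna2). DNA replication genes had 0 calls among 43, with 28 above 0 and a median of 0.04.

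Ubiquitin ligase adaptors with F-box, Kelch or Kctd domains had 3 lower and 0 higher genes among 115 measured, with a median of -0.02. Over all exons 0.782% were lower, and these few calls are no result about the list. Kctd19, 1 of the 3, is also on the list of spermatocyte regulators. Fbxo47, which is needed for synapsis in spermatocytes, stood at -1.13 in the authors' deposited table (with adjusted p = 8.95e-10). Fbxo15, a target of pluripotency factors, stood at -0.75 in the authors' deposited table (with adjusted p = 0.000556). Beside the same 0.782%, DNA repair genes had 2 lower and 0 higher among 50, with a median of -0.01. These were Mdc1, an adaptor that spreads the damage signal along chromosomes, at -0.58, and its upstream kinase gene Atr at -0.49 in the authors' deposited table (with adjusted p = 0.00461 and 0.0258). Both products act in silencing the unsynapsed sex chromosomes at pachytene. The Y-linked zinc finger gene Zfy2, which was on no list, stood at -0.83 in the authors' deposited table (with adjusted p = 7.18e-05).

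**Figure D2:**
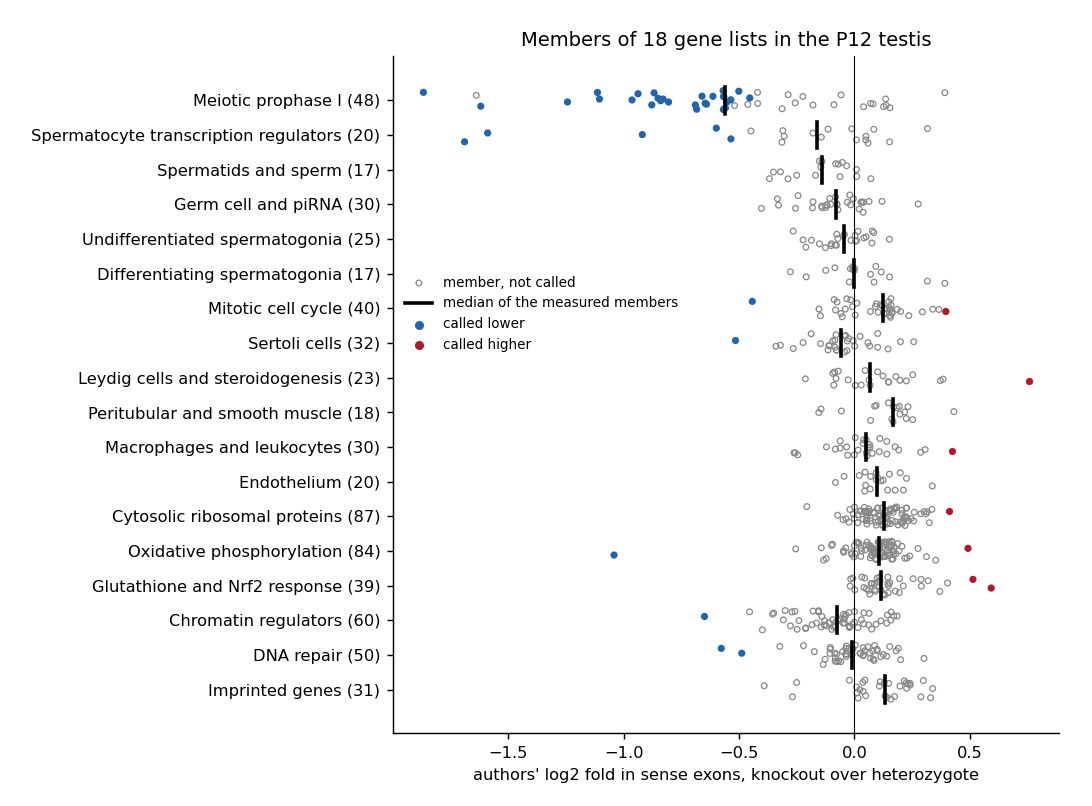
Log2 folds in sense exons (knockout over heterozygote, horizontal) of the measured members of 18 gene lists (vertical, with the number of measured members), from the authors' deposited table. Filled points are called lower (blue) or higher (red), open points are not called, and bars are medians; the meiotic list stands at -0.56 while ribosomal proteins (0.13) and glutathione genes (0.12) stand slightly above 0.

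Of the 122 lower genes, 72 were in none of the 53 lists. Rad51ap2, which encodes a partner of a DNA recombinase, was the lowest of these at -1.80 in the authors' deposited table (with adjusted p = 1.55e-27). Tsga10, a testis gene of the sperm tail, stood at -1.02 in the authors' deposited table (with adjusted p = 4.80e-09). Trim52, which encodes a RING finger protein, stood at -1.02 as well in the authors' deposited table (with adjusted p = 8.70e-10). Some unlisted lower genes are better known from the nervous system. The synaptic scaffold gene Rims2 stood at -0.75 and the syntaxin-binding gene Stxbp5l at -0.93 in the authors' deposited table (with adjusted p = 0.000109 and 3.56e-07). These genes are named after their values were seen.

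Exons of genes of earlier germ cells showed no call. The 25 measured genes of undifferentiated spermatogonia had a median of -0.05, and the 17 of differentiating spermatogonia a median of 0.00, with 0 calls in either list. In the authors' deposited table Taf4b, the most abundant gene of the undifferentiated list, stood at -0.27. Zbtb16 stood at 0.08, Lin28a at 0.01, Kit at -0.08 and Dazl at 0.03 in the authors' deposited table. None of these genes was called. The 30 measured germ cell and piRNA genes had 0 calls, a median of -0.08 and 22 members below 0. The lowest of them was Tex101 at -0.40, and Piwil1, the piRNA partner of pachytene cells, stood at -0.33 in the authors' deposited table. Of 34 matched spermatid genes 17 were measured, with 0 calls, a median of -0.14 and 14 below 0. With 0.782% of all exons lower and 0.0961% higher, 0 calls in lists of this size are no result about the lists.

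Lists of somatic cell types held single calls at most. With 0.782% of all exons lower and 0.0961% higher, single calls in lists of this size are no result about the lists. In Leydig cells, which make androgens, Cyp17a1 was higher at 0.76, the highest exon fold in the authors' deposited table (with adjusted p = 0.000122). It was the 1 call among 23 measured Leydig and steroid genes, with a list median of 0.07. Hsd17b3 at 0.38, Fdx1 at 0.37 and Star at 0.25, the next highest folds of the list, were not called in the authors' deposited table. Other genes of the same pathway lay near 0 or below it without a call. These were Cyp11a1 at 0.07, Scarb1 at 0.00, Srd5a1 at -0.09 and Fdxr at -0.09 in the authors' deposited table. Introns of Cyp17a1, at -0.19, were not called in the authors' deposited table (with adjusted p = 0.858). In Lhcgr, the receptor gene for luteinizing hormone, introns rather than exons were called in the authors' deposited table, with exons at 0.03 (adjusted p = 0.996) and introns lower at -0.73 (adjusted p = 2.00e-05).

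Of 32 measured Sertoli genes, 1 was lower and 0 were higher, with a median of -0.06 and 23 below 0. The same shares over all exons, 0.782% lower and 0.0961% higher, stand beside the lists of this paragraph. The lower one was Espn, an actin-bundling gene of Sertoli cell junctions, at -0.52 in the authors' deposited table (with adjusted p = 0.0146). Sertoli markers Amh at -0.34 and Sox9 at -0.32, the lowest of the list after Espn, were not called in the authors' deposited table. The abundant Clu stood at -0.11 and Aard at 0.07 in the authors' deposited table. Kitl at 0.20 and Cst9 at 0.26 were the highest of the list, without a call, in the authors' deposited table. Peritubular and smooth muscle genes had 0 calls among 18, with a median of 0.17 and 15 above 0. Endothelial genes had 0 calls among 20, with 18 above 0. Macrophage and leukocyte genes had 1 call among 30, Cd52 at 0.42 in the authors' deposited table (with adjusted p = 0.0273), with a median of 0.05. The part of cell numbers in these values was not tested.

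Genes of protein synthesis and energy metabolism lay slightly above 0 with hardly any call. With 0.782% of all exons lower and 0.0961% higher, these few calls are no result about the lists. Of 87 measured cytosolic ribosomal protein genes, 79 were above 0, with a median of 0.13, and 1 was called, Rps3a1 at 0.41 in the authors' deposited table (with adjusted p = 0.00805). Introns of Rpsa, which encodes another ribosomal protein, were higher at 0.67 in the authors' deposited table (with adjusted p = 0.0115), while its exons at 0.24 were not called. These genes have many processed copies in the genome, and how reads shared with them were counted is not given in the sources used here. Of 84 measured oxidative phosphorylation genes, 70 were above 0, with a median of 0.11. Among their cytochrome oxidase subunits, Cox7b was higher at 0.49 and Cox7a1 lower at -1.04 in the authors' deposited table (with adjusted p = 0.00558 and 1.88e-08). Cox7a1 lies in a stretch of chromosome 7 with several lower genes, described below. Mitochondrial ribosomal proteins had 0 calls among 75, with a median of 0.05.

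Glutathione and Nrf2 response genes had 2 higher and 0 lower members among 39 measured, with a median of 0.12 and 36 above 0. Over all exons 0.0961% were higher and 0.782% lower. Gsta2, a glutathione transferase, stood at 0.59 in exons and 0.78 in introns in the authors' deposited table (with adjusted p = 0.0162 and 0.00618). The cystine carrier gene Slc7a11 stood at 0.51 in exons in the authors' deposited table (with adjusted p = 0.0444). Gsto1 at 0.40 and the glutathione reductase gene Gsr at 0.37 were not called in the authors' deposited table. Amino acid response genes had 2 higher and 1 lower among 32, with a median of 0.07. The glutamine carrier gene Slc38a1 was higher at 0.52 and Sesn2, an amino acid sensor that p53 and ATF4 induce, lower at -0.46 in the authors' deposited table (with adjusted p = 0.0376 and 0.00651).

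Asah1, a lysosomal enzyme of ceramide breakdown, was higher at 0.48 in the authors' deposited table (with adjusted p = 0.00558), the 1 call among 40 lysosome and autophagy genes. Over all exons 0.0961% were higher, and 1 call is no result about that list. The highest fold below Cyp17a1 belonged to Defb40, a beta-defensin gene with a mean normalized count of 17.1, at 0.63 in the authors' deposited table (with adjusted p = 0.000125). Gria4, an AMPA receptor subunit gene, stood at 0.58 and Cntn1, a neural adhesion gene, at 0.53 in the authors' deposited table (with adjusted p = 0.0301 and 0.0324). Dkk2, which encodes a secreted Wnt antagonist, was higher at 0.51 in the authors' deposited table (with adjusted p = 0.0324). Prkar2b, a regulatory subunit of protein kinase A, and the G protein gene Gnb5 stood at 0.45 each in the authors' deposited table (with adjusted p = 0.00586 and 0.0258).

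RNA and chromatin regulators had 1 lower gene in a list at most, and with 0.782% of all exons lower, single calls in lists of this size are no result about the lists. The decapping enzyme gene Dcp2 was the 1 call among 56 RNA decay genes, at -0.38 in the authors' deposited table (with adjusted p = 0.0376), and the list had a median of -0.04. Among 49 spliceosome and RNA-binding genes 1 was lower, Cpeb4, which binds poly(A) control elements, at -0.42 in the authors' deposited table (with adjusted p = 0.00728). The 60 chromatin regulators had 1 lower gene, the histone demethylase Kdm4d at -0.65 in the authors' deposited table (with adjusted p = 0.00728), and 45 lay below 0, with a median of -0.08. The 22 measured m6A writers, erasers and readers had 0 calls and a median of -0.06, with Meioc at -0.29 and Fmr1 at -0.33 in the authors' deposited table. Endoplasmic reticulum folding genes had 1 lower gene among 28, Ero1lb (also Ero1b) at -0.51 in the authors' deposited table (with adjusted p = 0.0124). Zinc finger genes of the Zfp series had 3 lower members among 343 (0.875%), near the 0.782% of all exons. Of 35 axoneme genes 1 was lower in exons, Dnah7a at -0.43 in the authors' deposited table (with adjusted p = 0.0443), and 3 were lower in introns. In 31 of the lists 0 exons were called, among them DNA replication, proteasome, cholesterol synthesis, histones, interferon response, Notch, hedgehog and Wnt, imprinted genes, Hox genes and small nucleolar RNAs.

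Promoters of the lower genes were read for short motifs, since STRA8 and MEIOSIN, the transcription factors that start meiosis, bind DNA with the letters CNCCTCAG. RefSeq promoter windows of GRCm38, from 250 bases before to 50 bases after a start, were at hand for 98 of the 122 lower genes, for 9 of the 15 higher genes and for 12216 of the 15608 measured genes. The motif, searched on both strands, lay in windows of 23 of the 98 lower genes (23.5%), against 1334 of all measured genes (10.9%). It lay in 7 of 25 lower meiotic genes (28%), in 16 of 73 other lower genes (21.9%) and in 2 of 9 higher genes (22.2%). These are the windows of the 4 lowest called genes with 1 window and the motif, in capitals wherever it occurs on either strand, and of Rad51ap2, the lowest with 1 window and without it. Reading 5′ to 3′ on the gene's own strand, Inca1 lies at chr11:70700106-70700405 (minus), Msh5 at chr17:35046573-35046872 (minus), Hfm1 at chr5:106925841-106926140 (minus), Spdya at chr17:71551811-71552110 (plus) and Rad51ap2 at chr12:11455805-11456104 (plus).
Inca1: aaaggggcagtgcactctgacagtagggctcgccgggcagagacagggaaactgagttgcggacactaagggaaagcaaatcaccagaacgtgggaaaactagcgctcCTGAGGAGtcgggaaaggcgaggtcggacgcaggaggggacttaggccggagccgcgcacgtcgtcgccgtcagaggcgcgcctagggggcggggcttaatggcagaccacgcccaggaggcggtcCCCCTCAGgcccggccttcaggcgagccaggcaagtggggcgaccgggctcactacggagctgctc
Msh5: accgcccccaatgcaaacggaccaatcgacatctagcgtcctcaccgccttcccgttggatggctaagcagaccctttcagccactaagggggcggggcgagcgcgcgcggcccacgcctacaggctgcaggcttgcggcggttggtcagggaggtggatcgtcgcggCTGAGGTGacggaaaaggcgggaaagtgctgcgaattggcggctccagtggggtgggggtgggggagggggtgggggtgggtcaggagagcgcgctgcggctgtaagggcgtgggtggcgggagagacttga
Hfm1: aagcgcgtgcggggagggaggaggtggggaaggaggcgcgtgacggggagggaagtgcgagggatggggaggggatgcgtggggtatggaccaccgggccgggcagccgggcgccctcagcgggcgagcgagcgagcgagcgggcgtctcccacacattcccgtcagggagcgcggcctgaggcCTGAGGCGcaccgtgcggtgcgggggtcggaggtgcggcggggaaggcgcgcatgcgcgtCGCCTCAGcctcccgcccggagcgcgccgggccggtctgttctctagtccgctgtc
Spdya: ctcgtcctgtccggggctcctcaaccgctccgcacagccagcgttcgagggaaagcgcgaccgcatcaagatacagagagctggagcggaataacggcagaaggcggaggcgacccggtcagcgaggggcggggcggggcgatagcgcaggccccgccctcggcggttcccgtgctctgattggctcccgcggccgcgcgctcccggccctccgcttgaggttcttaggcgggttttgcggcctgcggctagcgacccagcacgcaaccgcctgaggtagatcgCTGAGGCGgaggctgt
Rad51ap2: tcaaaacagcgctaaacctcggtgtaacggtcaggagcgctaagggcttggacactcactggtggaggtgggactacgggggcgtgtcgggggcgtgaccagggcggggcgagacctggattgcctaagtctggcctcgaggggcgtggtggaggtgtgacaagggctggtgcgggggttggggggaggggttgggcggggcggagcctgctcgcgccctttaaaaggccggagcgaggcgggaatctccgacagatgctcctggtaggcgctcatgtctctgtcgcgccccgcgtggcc

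Inca1 and Hfm1 held 2 matches each, Msh5 and Spdya 1 each. The other 19 lower genes with the motif included the meiotic genes Prdm9, Hormad2, Tex12 and 4930447C04Rik, and Zfy2, Eaf2, Ero1lb and Cpeb4 from outside that list. A match is a run of letters and not a measured site, and the cause of the difference in shares was not tested. Other motifs had shares nearer to those of all genes. The MYB core AACNGTT was in 3.06% of lower and 4.07% of all genes, and the cyclic AMP response core TGACGT in 9.18% and 12.4%. The RFX motif GTTGCC was in 17.3% of lower and 14.8% of all genes, the CCAAT box in 51% and 42.6%, the GC box GGGCGG in 71.4% and 66.1%, and TATAAA in 8.16% and 9.27%. Among the 9 higher genes, TATAAA was in 4 and GGGCGG in 3. Motifs with overlapping letters were counted separately, and windows hold no more than 300 bases around the start.

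Introns gave calls of their own. Of 13885 measured sense introns 129 were lower (0.929%) and 13 higher (0.0936%). Reads in introns stem mostly from RNA that is not yet spliced. Introns of Meiob, which encodes the partner of SPATA22 in recombination, were the lowest at -1.77 in the authors' deposited table (with adjusted p = 1.28e-17). Its exons had no adjusted p in the authors' deposited table, with a fold of -1.64 at a mean normalized count of 200.5. Spata22 introns at -1.69 and Mtl5 introns at -1.68 came next in the authors' deposited table, both with the same adjusted p of 1.28e-17.

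Several genes had introns further below 0 than their exons, without a general shift of that kind over all genes, as given below. A830018L16Rik had introns at -1.50 (adjusted p = 3.48e-12) and exons under the minimum, with a mean normalized count of 8.24, in the authors' deposited table. Cers3, a ceramide synthase gene, had introns at -1.24 and exons at -0.72 in the authors' deposited table (with adjusted p = 4.46e-08 and 0.000454). Pbx3, a homeobox gene, was lower in introns at -1.17 and in exons at -0.88 in the authors' deposited table (with adjusted p = 2.75e-12 and 5.23e-07).

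In 63 genes the introns were lower and the measured exons were not called, with a median log2 fold of -0.64 in introns and -0.29 in exons. These genes were picked by that difference in calls, so the choice itself favours lower medians in introns. Smpd3, a sphingomyelinase gene, had introns at -1.15 (adjusted p = 6.79e-08) and exons at -0.43 (adjusted p = 0.304), as listed in the authors' deposited table. Zfp420 had introns at -1.08 (adjusted p = 2.81e-06) and exons at -0.41 in the authors' deposited table. Hpse2, which encodes a relative of heparanase, had introns at -0.95 (adjusted p = 1.52e-06) and exons at -0.16 in the authors' deposited table. The RNA-binding gene Pcbp3 had introns at -0.90 (adjusted p = 2.26e-09) and exons at -0.35 in the authors' deposited table. Others were Pkd2l2, 4732471J01Rik and Gm6981, with introns between -1.06 and -0.92 in the authors' deposited table. In 3 of the 63 genes the exons lay above 0. Over all 13332 genes measured in both, the median of exon fold minus intron fold was -0.006. Among the 111 of these with lower exons, a set picked by its exons, the median was -0.11, with exons below introns.

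Higher introns numbered 13. Rspo3, a secreted Wnt amplifier, had introns at 1.16 (adjusted p = 4.80e-07) and exons at 0.43 (adjusted p = 0.180), as listed in the authors' deposited table. The kinase gene Stk32a had introns at 0.88 (adjusted p = 0.000474) and exons at 0.03 in the authors' deposited table. Trhde at 0.79, the homeobox gene Meis2 at 0.74, Cntn4 at 0.72, the adrenergic receptor gene Adra1a at 0.70, Adh1 of retinol oxidation at 0.70, Gria4 at 0.69 and the fibroblast protease gene Fap at 0.68 were further higher introns in the authors' deposited table. Stra8 introns at 0.60, Thsd7a introns at 0.67 and the Rpsa and Gsta2 introns given above complete the 13 in the authors' deposited table.

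Where both were measured, in 13332 genes, exons and introns had calls in opposite directions in 0 genes. Of 111 genes with lower exons, 58 also had lower introns. Of 13 genes with higher exons and measured introns, 11 had introns above 0, and 2, Gsta2 and Gria4, were called higher in both. Of the 12 genes with higher introns, all 12 had exons above 0. The exons of Ythdc2 were lower with introns that were not called, and so were those of Trim52, whose introns stood at -0.19 in the authors' deposited table.

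**Figure D3:**
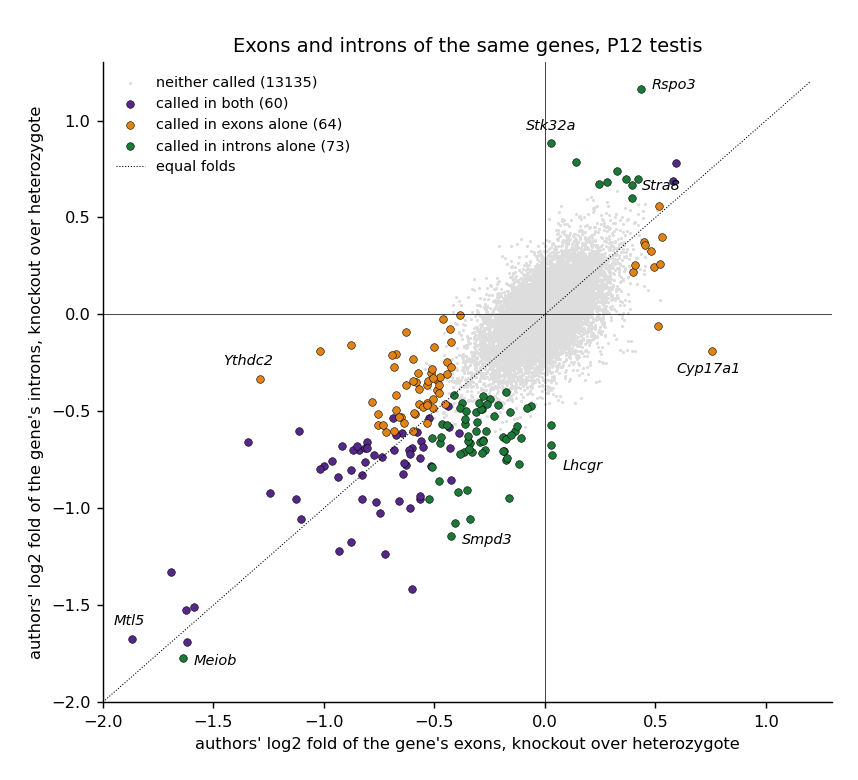
Log2 fold of a gene's introns (vertical) against that of its exons (horizontal), both knockout over heterozygote and from the authors' deposited table, for 13332 genes measured in both. The 60 genes called in both (purple) lie on both sides of the dotted line of equal folds, 64 were called in exons alone (orange) and 73 in introns alone (green), which include Meiob, whose exons had no adjusted p.

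Antisense counts of genes held calls too. Of 4180 measured antisense introns 37 were lower (0.885%) and 6 higher (0.144%), and of 2497 antisense exons 5 were lower (0.200%) and 0 higher. The calls fell in 44 genes, 4 of them with calls in both antisense exons and introns. In these 44 genes, 0 sense exons and 0 sense introns were called, and the 41 measured sense exons had a median of -0.03. Over all genes 137 of 15608 sense exons and 142 of 13885 sense introns were called. At such shares, 0 calls in a set of this size are no result about these genes. The protocol kept strand. Within 10 kb, 31 of the 44 genes had a neighbour in the table, and for 3 of them, named below, a neighbour's sense exons were called. The strand of gene and neighbour was known for 26 genes, of which 16 had a neighbour on the opposite strand and 1 a called one. Unannotated transcripts were not searched for.

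The lowest antisense introns were those of Zfp27 at -2.63, with a mean normalized count of 15.2, in the authors' deposited table (with adjusted p = 2.62e-07). Tbc1d10c at -1.75 and Carns1 at -1.20, neighbours on chromosome 19, were both lower in antisense introns in the authors' deposited table (with adjusted p = 0.00234 and 6.99e-05). Cpt1a at -1.64 and Gal at -1.55 were lower in antisense introns in the authors' deposited table (with adjusted p = 0.00296 and 0.01). These genes flank Mtl5, the lowest exon of the table, at chromosome 19 positions 3388857 to 3407823 of GRCm38, each within 10 kb of it. They and Il2 are the 3 genes of the 44 with a called neighbour. Il2, whose product is a T cell cytokine, had antisense introns at -1.56 (adjusted p = 0.0130) and almost no sense exon counts (mean normalized count 0.178) in the authors' deposited table. It lies within 10 kb of Adad1, a germ cell gene with exons at -0.76 in the authors' deposited table (with adjusted p = 0.000145).

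Antisense exons were lower in Nrip1 at -2.09, Vps33a at -1.86, Six5 at -1.42, Adgrl1 at -1.26 and Carns1 at -1.15 in the authors' deposited table (with adjusted p = 0.00901, 0.0217, 2.08e-06, 6.73e-07 and 0.0217). Mean normalized counts behind these values were low, from 11.9 for Nrip1 to 137.7 for Adgrl1 in the authors' deposited table. Further low antisense introns were those of Dpm1 at -1.72, Adk at -1.70 and Esrp1 at -1.58 in the authors' deposited table. The 6 higher ones were Atp13a5 at 1.95, Arfgef3 at 1.64, Inadl at 1.55, Igf1 at 1.41, Cwc27 at 0.91 and Zfp943 at 0.63 in the authors' deposited table. Igf1, a growth factor gene of Leydig and stromal cells, had sense exons at 0.13 in the authors' deposited table, which were not called.

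In sense counts, hardly any repeat was called. Of 1058 measured repeats in sense counts 1 was lower (0.0945%) and 0 were higher. It was RLTR10B2, a long terminal repeat of the ERVK family of endogenous retroviruses, at -0.51 in the authors' deposited table (with adjusted p = 0.0379, mean normalized count 129.4). The 267 measured ERVK repeats had a median of 0.00, and the 94 of the ERVL-MaLR family a median of -0.04 with 65 below 0. The 37 SINEs had a median of 0.03 with 29 above 0, and the 11 snRNA repeats a median of 0.15 with 10 above 0. Small structural RNAs took most of the sense repeat counts, with 29.98% for 7SLRNA at a fold of 0.12 and 23.7% for 7SK at 0.08 in the authors' deposited table, both not called.

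In antisense counts, 15 of 1076 measured repeats were lower (1.39%) and 4 were higher (0.372%), with small folds. LINE-1 (L1) retrotransposons held 11 of the 15, among 129 measured L1 repeats with a median of -0.03. The lowest was Lx3B at -0.20 in the authors' deposited table (with adjusted p = 0.000887), followed among L1 by Lx3A at -0.17 and L1VL2 at -0.15. L1Md_F2, with a mean normalized count of 27324, stood at -0.10 in the authors' deposited table (with adjusted p = 0.0226). L1Md_T, from a subfamily that is still mobile in mice, stood at -0.14 in antisense counts (adjusted p = 0.0150) and at 0.00 in sense counts in the authors' deposited table. The other 4 lower repeats were the retroviral MERV1_I-int and MMERGLN-int at -0.18 each, and RMER1B and RMER1A at -0.13 and -0.12 in the authors' deposited table. Higher ones were UCON6 at 0.27, MamSINE1 at 0.22, Charlie5 at 0.18 and MIRb at 0.10 in the authors' deposited table. Of the 19 repeats called in antisense counts, 0 were called in sense counts. With 1 of 1058 sense repeats called in all, this is no result about these repeats. UCON6, at a sense mean normalized count of 2.82, was under the minimum there. Copies inside introns of genes are not separated from free copies in these counts, and 380 of the 1076 had no adjusted p.

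**Figure D4:**
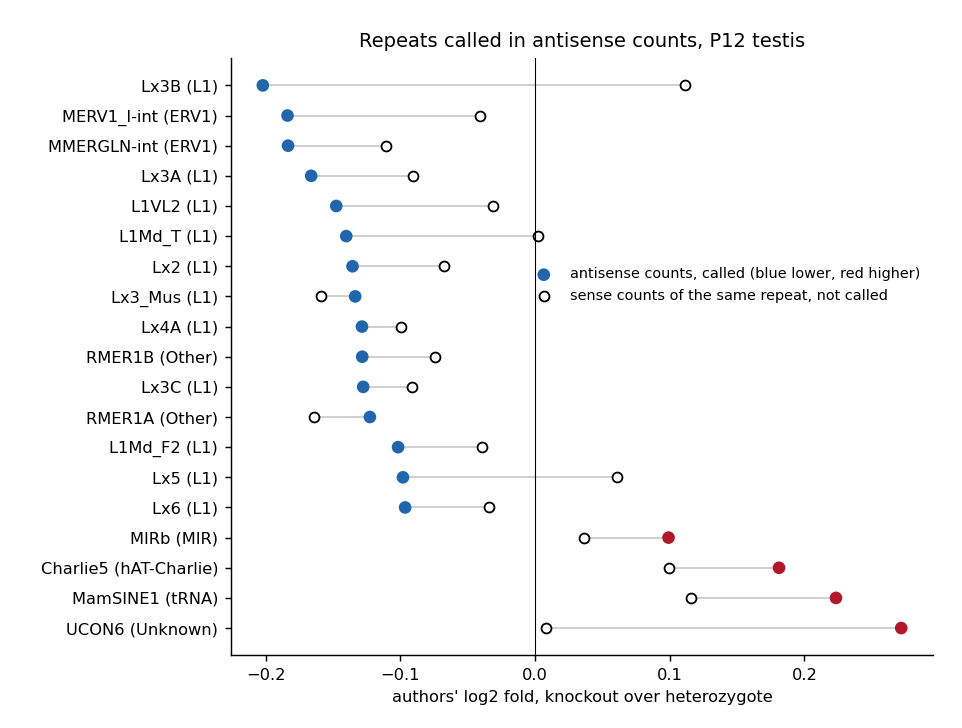
Log2 fold (knockout over heterozygote, horizontal) of the 19 repeats called in antisense counts (vertical, with family), from the authors' deposited table. Filled points are the called antisense folds, blue lower and red higher, and open points the sense folds of the same repeat, which were not called; all folds lie between -0.20 and 0.27.

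The miRNA genes had 0 calls among 133 measured in sense counts (0%) and 1 higher among 16 in antisense counts (6.25%). The call was the antisense strand of mmu-mir-130c, at 0.72 with a mean normalized count of 115.2 in the authors' deposited table (with adjusted p = 0.00125). On the sense strand the same locus had a mean normalized count of 0.649 in the authors' deposited table, so the mature miRNA itself is not what was called. The locus lies within Poglut3, at chr9:53400805-53400886 of GRCm38, whose sense exons stood at 0.07 and were not called in the authors' deposited table. The mature sequence of RefSeq, shown because it marks the locus that was called, has its seed (bases 2 to 8) in capitals.
mmu-miR-130c: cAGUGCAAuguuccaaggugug

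Lower genes were not spread evenly over the chromosomes. Chromosome 7 had 22 of the 122, which is 1.86% of its 1183 measured exons, and the other autosomes between 0.172% and 1.45%. The X chromosome had 4 lower among 650 (0.615%), and the Y chromosome 1 among 9. A stretch from Samd4b to Gramd1a (chr7:28399522-31155935, GRCm38) held 11 of the 22 among 94 measured exons. It was chosen after its values were seen. Its exons had a median of -0.16 with 76 of 94 below 0, against 0.01 elsewhere. Introns gave the same stretch 5 lower among 75 measured, with a median of -0.15 and 62 below 0. These were Zfp420, Capns1 at -0.78, Arhgap33 at -0.76, Haus5 at -0.70 and Lsr at -0.54 in the authors' deposited table (with adjusted p for the last 4 of 0.000922, 0.00813, 0.0146 and 0.0368). The antisense introns of Zfp27 lie there too. The members have unlike roles, from the calpain subunit gene Capns1 and the cytochrome oxidase gene Cox7a1 to the tubulin-folding gene Tbcb. Ythdc2 lies on chromosome 18. Without the stretch, chromosome 7 had 11 lower genes among 1089 (1.01%).

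The 122 genes lower at P12 were next read in the other gonads. At P8, before most germ cells reach prophase, 2 knockout libraries were compared with 1 wild-type and with 1 heterozygous library, and both comparisons share the knockout libraries. Over the wild type, 0 of the 122 were called (1 lower of 15592 exons, 0.00641%, and 6 higher, 0.0385%), with a median of -0.01 and 64 of 122 below 0. Over the heterozygote 0 were called too (8 lower, 0.0513%, and 1 higher, 0.00641%), with a median of -0.04 and 80 below 0. Ythdc2 itself stood at -0.50 over the wild type and -0.24 over the heterozygote at P8, and was not called, in the authors' deposited table. Zfp541 stood at 0.04 over the wild type and -0.06 over the heterozygote in the authors' deposited table. Hfm1 stood at 0.04 and -0.03 in those comparisons of the authors' deposited table. The tables were normalized separately, and with 1 control library per comparison at P8 a change of the P12 size may not have been detectable there.

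In newborn ovaries, where oocytes pass through the same prophase, 2 knockout libraries were compared with 2 heterozygous ones. Of 109 of the genes measured there, 0 were lower (background 0.445%) and 2 were higher (background 0.103%), with a median of -0.03. Rad51ap2 was higher in knockout ovary at 0.72 and Ccnb3 at 0.66 in the authors' deposited table (with adjusted p = 0.00512 and 0.0156), both among the lowest genes of P12 testis. Ythdc2 stood at -0.43 in the ovary, as listed in the authors' deposited table, and was not called. Mtl5 stood at 0.27 and Zfp541 at -0.45 in the ovary of the authors' deposited table, without a call. Of the genes higher in P12 testis, 13 were measured in the ovary and 1 was lower there, Slc7a11 at -0.62 in the authors' deposited table (with adjusted p = 0.0457). The difference between testis and ovary was not tested.

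**Figure D5:**
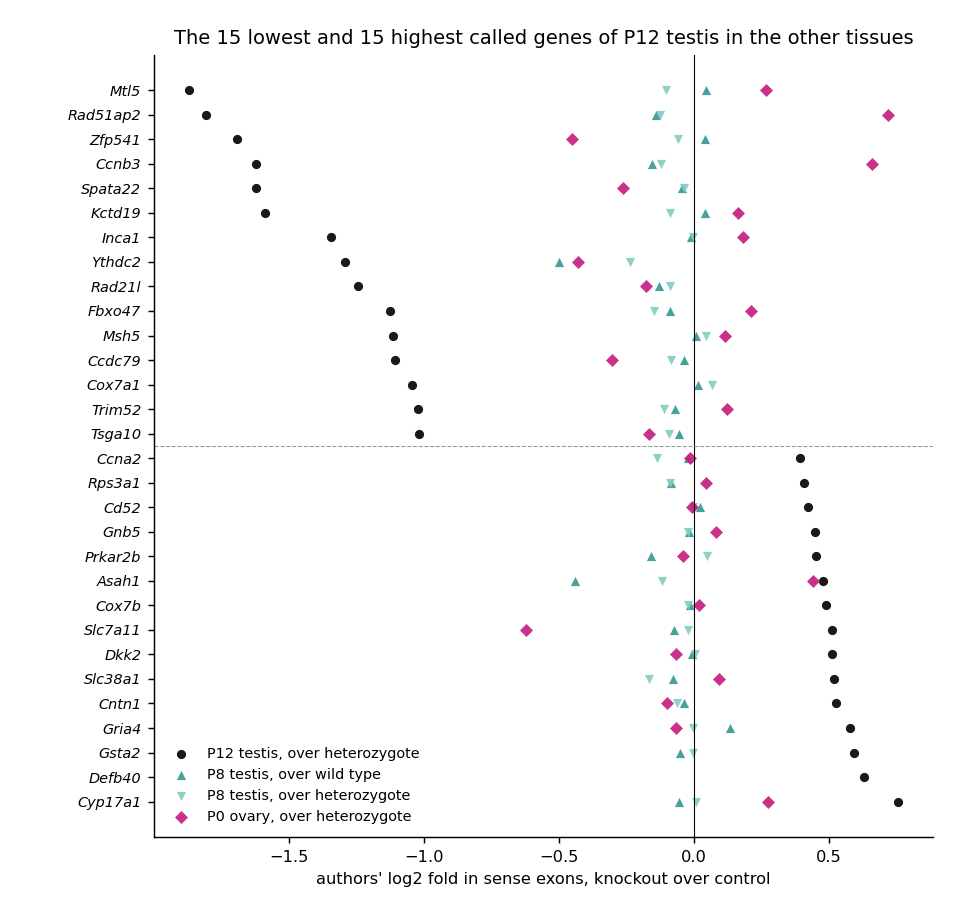
Log2 folds in sense exons (knockout over control, horizontal) of the 15 lowest and 15 highest called genes of P12 testis (vertical), in P12 testis (black), P8 testis over wild type and over heterozygote (triangles) and newborn ovary (diamonds), from the authors' deposited tables. The P8 points furthest from 0 are Ythdc2 at -0.50 and Asah1 at -0.44, both over wild type and not called, and in the ovary Rad51ap2 at 0.72 and Ccnb3 at 0.66 lie to the right of 0 while their P12 points lie at -1.80 and -1.62.

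Methylated RNA at P8 was available as 1 immunoprecipitate over 1 input from wild-type testes, without replicates, so folds of these libraries are given with no call. Of the 122 lower genes 70 were below 0 (57.4%), with a median of -0.43, against 50.8% below 0 and a median of -0.03 over all measured genes. The 28 meiotic genes had 24 below 0 and a median of -1.07, and the other 94 had 46 below 0 and a median of 0.05. Among meiotic genes, Hfm1 stood at -1.86 and Sycp2 at -1.46 in the authors' deposited table. Prdm9, which places the double-strand breaks, was 1 of the 4 above 0, at 0.70 in the authors' deposited table. Outside the meiotic list, Rad51ap2 stood at 1.17, Trim52 at 1.09, Zfp541 at 0.79 and Atr at -1.72 in the authors' deposited table. Of 14 measured genes higher in P12 testis 10 were below 0, with Asah1 at -1.86 and Cyp17a1 at -1.59 in the authors' deposited table. The fold compares fragments with input rather than counting methylated sites.

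In 50 of the measured exons the authors gave no adjusted p, so these could not be called. Apart from Meiob at -1.64, their folds lay between -0.26 and 0.57 in the authors' deposited table. They included Acta1, Myh1 and Ttn, genes of skeletal muscle fibres, at -0.03, -0.15 and -0.15 in the authors' deposited table, and Hoxa11, a homeobox gene of limb and urogenital tract, at 0.57. These are named after their values were seen, and the reason for the missing values is not given in the sources used here.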

How the data were processed

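Total RNA of P12 testes was extracted with TRIzol, depleted of ribosomal RNA and made into stranded libraries, which were sequenced on an Illumina HiSeq, per the labels' protocols. The submitters' processing notes name mm10 and DESeq2, while aligner, counter and annotation were not given in the sources used here. The table holds the authors' own comparison. Its signal column is the mean of normalized counts over the libraries, per the file headers. The log2 folds are the authors' deposited values, read as knockout over heterozygote; the column headers also carry the words IP and input, although the labels list total RNA alone. The adjusted p-values are the authors' deposited ones too. With no counts per library, the planned fit per library could not be made, the depth of each library is unknown, and no error can be given beside a fold.

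Features whose mean normalized count reached 10 and that had an adjusted p below 0.05 were called. For lists, repeat families and chromosomes the called members and the median fold were counted, with no test. Of 20215 gene names, 20048 matched RefSeq of GRCm38, which gave positions and promoters. The members and lists were chosen with earlier results of these data known. Named genes were the 15 lowest and 15 highest called exons, the 10 lowest and highest introns, up to 8 at each end of the other types, called members of lists, abundant members of lists without a call, and up to 8 genes called in introns alone; others were chosen after their values were seen, as were the genes shown in the other gonads. Alternatives were other minimums of the mean count, thresholds, fold sizes and centring. Scripts ran in Python 3.11.15 with pandas 2.3.3, NumPy 2.4.6 and matplotlib 3.10.9, and the counting and motif search were tested on simulated data. Some items that met the naming rule are not reported here.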

Additional observations from a re-analysis of the deposited data

How the results depend on the processing

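Leaving out a replicate, edgeR with TMM scaling and a replicate block were not run. No paired analysis was possible because the table holds no values per library. The 122 lower sense exons stayed within 1.5 times that count under each other threshold, minimum and fold size tried. The 15 higher sense exons became 6 at an adjusted p below 0.01, 24 below 0.1 and 8 with a log2 fold of at least 0.5 in size. Lower sense introns fell to 80 below 0.01, and higher ones numbered 5 below 0.01 and 22 below 0.1. Lower antisense exons numbered 3 at a mean count of at least 50 and 3 below 0.01, lower antisense introns 19 at a mean count of at least 50, and higher antisense introns 3 below 0.01. The sense repeat was lost below 0.01, leaving 0. Antisense repeats had 5 lower and 0 higher below 0.01, 16 higher below 0.1, and 0 lower and 0 higher with a log2 fold of at least 0.5 in size. Genes with lower introns and exons not called numbered 41 where both mean counts reached 100. Lower genes on chromosome 7 numbered 11 without the stretch named above, an alternative chosen after seeing the data. The medians of 6 of 51 lists moved by 0.1 or more on the log2 scale when read in introns, and 0 of 52 did so with centred folds. The cause of these shifts was not tested beyond the smaller number of features that a stricter setting leaves. Adjusted p-values rest on 3 libraries against 3, which may be technical replicates, and the deposited folds cannot show which library carries a call.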
